A study of Ovis aries with 6 samples.

Results

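The protein kinases that carry second-messenger signals in the pituitary, with the calmodulin genes that several of them depend on, were followed across 6 sheep (Ovis aries) libraries. The 50 genes were taken by name from the deposited tables of 26067 features. They encode the subunits of protein kinase A (PKA), the protein kinase C (PKC) isoforms, calmodulin, the calcium/calmodulin-dependent (CaM) kinases with 2 inhibitors of CaM kinase II, and the MAP kinases (MAPK) with the kinases directly upstream of them (MAP2K). The study set 3 small-tailed Han sheep, its high-reproduction group, beside 3 Wadi sheep, its low-reproduction group. The animals were described as healthy and alike in body composition, with age, sex, cycle stage and treatment not given in the sources used here. Total RNA from tissue labelled pituitary was copied into full-length complementary DNA and read on the Oxford Nanopore platform, in 6 libraries. No library label (C1 to C6) states a breed, so no breed comparison was made. Each library was described separately and is a single sample without replicates.

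Levels are given as CPM, the gene's counts scaled to a library total of 1000000, always in the order C1 to C6 where 6 values follow each other. The libraries held 1981644 to 2732911 gene counts, so 1 count was worth 0.366 to 0.505 CPM, and a count of 0 allows a level of up to 1.10 to 1.51 CPM (3 counts). The tissue label was not borne out in every library. The summed level of 7 anterior pituitary hormone genes was 139, 47.2, 50.3, 142071, 299657 and 47146 CPM. Of 8 pituitary transcription factor and receptor genes, 6, 7 and 7 were at 0 counts in C1, C2 and C3, among them POU1F1, PITX1 and TBX19, against 0, 1 and 2 in C4, C5 and C6. The summed level of 11 general neuron genes was 8354, 8166, 7639, 744, 949 and 510.2 CPM, and that of 10 cerebellar granule neuron genes 4999, 4890.0, 4541, 146, 115 and 166 CPM. Of the 8 Purkinje cell genes, with sums of 4346, 3895, 3504, 486, 463 and 402 CPM, PCP2 and SLC1A6 were at 0 counts in C4 and C5. C4 held the most of 9 fibroblast and smooth muscle genes, whose sums were 154, 284, 400.3, 8103, 193 and 1268 CPM. C6 held the most of 5 Schwann cell genes (14.2, 8.05, 12.1, 135, 6.20 and 9179 CPM), 5 oligodendrocyte genes (187, 86.7, 135, 8.75, 2.89 and 3346 CPM) and 6 astrocyte and pituicyte genes (3764, 5052, 4772, 155, 125 and 10019.5 CPM). S100B carried most of the astrocyte and pituicyte sum, and without it the other 5 genes summed to 467, 560.2, 659, 51.7, 25.6 and 677 CPM, with C6 close to C3. The sums were 2.14, 1.83, 0.378, 107, 261 and 31.3 CPM for the pituitary transcription factor and receptor genes, 27.4, 45.0, 46.5, 371, 547 and 215 CPM for 7 folliculostellate and stem cell genes, 96.9, 133, 84.4, 197, 31.8 and 189.7 CPM for 7 endothelial genes and 151, 178, 134, 452, 527 and 841 CPM for 7 macrophage and microglia genes. ALDH1A1 carried most of the folliculostellate and stem cell sum in C4 and C5. Without it the other 6 genes summed to 20.6, 24.5, 36.3, 68.7, 109 and 106 CPM, with C6 close to C5. FLT1 carried most of the endothelial sum in C1, C2 and C3. Without it the other 6 genes summed to 8.58, 23.8, 28.4, 173, 25.2 and 129 CPM. These marker levels moved with many of the kinase levels, and their part in them was not tested. In bulk tissue, fewer cells of a type and less RNA per cell cannot be told apart.

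In the anterior pituitary, releasing hormones act through several second messengers. Growth hormone-releasing hormone and corticotropin-releasing hormone raise cyclic AMP, which frees the catalytic subunits of PKA from its regulatory subunits. Gonadotropin-releasing hormone and thyrotropin-releasing hormone act through phospholipase C, which raises calcium and diacylglycerol and so engages PKC, calmodulin and the CaM kinases. Both kinds of signal reach the MAP kinase cascades, in which a MAP2K phosphorylates a MAPK. Neurons use the same enzymes, but with their own preferred paralogs, such as JNK3 (MAPK10) and CaM kinase IV (CAMK4) in rodents.

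Of the 50 genes, 38 had at least 60 counts over the 6 libraries and were tested. The other 12 never exceeded 20 counts in a library, and 9 of them were at 0 counts in at least 1 library. A gene was called as differing between the libraries when a chi-square test of homogeneity passed a Benjamini-Hochberg adjusted p of 0.05 and the highest CPM was at least 2 times the lowest. By this rule 34 of the 38 were called, against 80.9% of all 13248 features tested, so most genes of any kind differed between these libraries. The test covers counting error and compares these libraries, not conditions. The ratios below have exact conditional 95% intervals, and values without a library are given where they change the call or move the ratio by over 1.5 times. The median ratio of highest to lowest library was 4.20 over the 38 genes and 4.31 over all features tested. Of the 34 called genes, 9, 5, 10, 3, 3 and 4 peaked in C1, C2, C3, C4, C5 and C6, against 21.2, 15.2, 16.8, 14.1, 11.6 and 21.0% of all called features. The lowest level was in C5 for 11 and in C6 for 12 of the 34, against 35.4% and 17.1% of all called features.

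The order of the libraries was noted for each gene as the 3 libraries with the highest CPM. They were C1, C2 and C3 for 24 of the 38 genes, against 38.8% of all features tested. They were C4, C5 and C6 for 3 genes (PRKACA, CAMK1 and MAP2K1), against 22.8% of all features. The remaining 11 genes had other orders. In the authors' TPM values, which divide counts by transcript length, the same counts were 16 and 9 of 38, against 22.7% and 39.1% of all features. Over all genes, TPM per CPM was shifted in C2 to C6 relative to C1 by 0.11, 0.33, 1.24, 1.34 and 0.94 log2 units, and once this library shift was taken out the counts in TPM were 24 and 3, against 43.3% and 20.8% of all features. The 50 genes together took 0.636, 0.682, 0.658, 0.314, 0.294 and 0.305% of all gene counts.

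**Figure D1:**
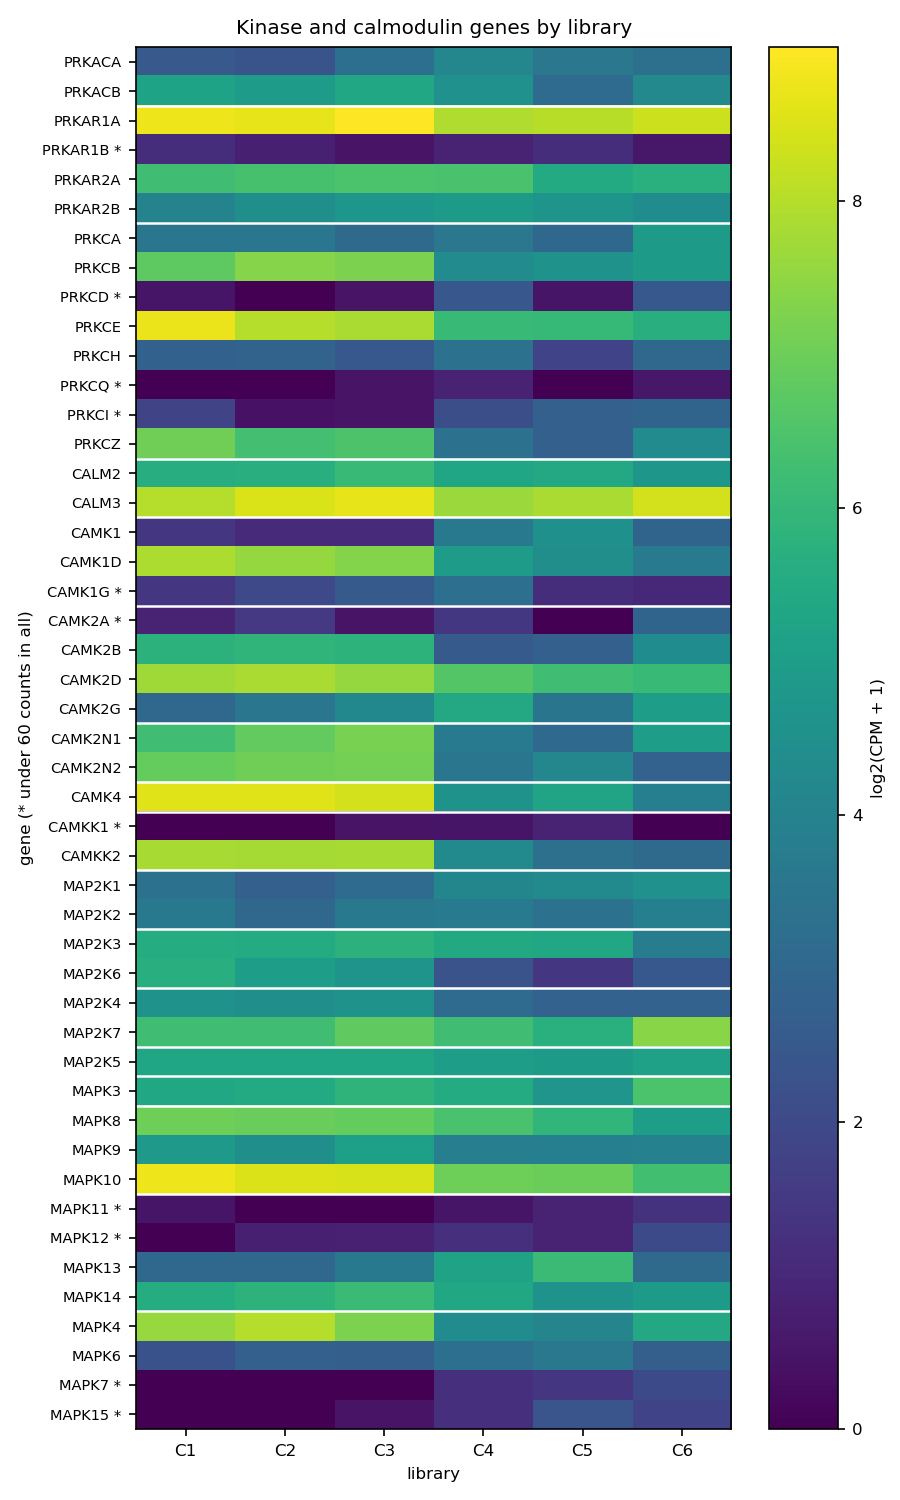
Heat map of 47 of the genes (rows, grouped by family with white lines) in the 6 libraries (columns), coloured by log2(CPM + 1), with an asterisk on the 11 genes with fewer than 60 counts in all. Of the 36 tested genes shown, 22 have their 3 highest values in C1, C2 and C3.

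PKA is a tetramer of catalytic and regulatory subunits, and its 2 main catalytic genes had opposite orders. PRKACA, the alpha catalytic subunit, was at 4.72, 4.03, 8.70, 17.1, 10.7 and 9.08 CPM. The highest library, C4, exceeded the lowest, C2, 4.24-fold (95% interval 2.13 to 9.18), or 2.67-fold without C4. PRKACB, the beta catalytic subunit, was at 36.0, 30.0, 41.2, 22.3, 7.85 and 17.7 CPM. C3 exceeded C5 5.25-fold (95% interval 3.21 to 9.06), or 2.34-fold without C5. In CPM, all of C1, C2 and C3 were thus below C4, C5 and C6 for PRKACA, and above them for PRKACB. For PRKACA, the 95% Wilson intervals of C3 (5.80 to 13.1 CPM) and C6 (5.75 to 14.4 CPM) overlapped. In TPM, PRKACB was at 5.01 TPM in C3, below C4 (19.8 TPM) and C6 (6.45 TPM). With the library shift taken out, C3 was still below C4 but above C6. PRKACA took 11.6, 11.8, 17.4, 43.3, 57.8 and 34.0% of the catalytic counts, from 11.6% (95% Wilson interval 6.59 to 19.6%) in C1 to 57.8% (95% Wilson interval 43.3 to 71.0%) in C5. Expressed in TPM, the share was 2.51, 2.44, 19.4, 18.1, 38.8 and 22.7%, where C3 no longer stood with C1 and C2. Counts of PRKACA were low, at 11 to 39 per library and not whole numbers in any library, so single counts of this gene are uncertain.

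The 3 tested regulatory genes had ratios of 2.09 or less. PRKAR1A, the type I alpha subunit that restrains PKA in most tissues, was the most counted of them at 435, 409.8, 512, 245, 261 and 316 CPM. C3 exceeded C4 2.09-fold (95% interval 1.89 to 2.31), or 1.78-fold without C3 and 1.96-fold without C4. The ratio was 1.87 with DESeq2 scaling, 1.79 against totals without the hormone genes, and 1.01 in TPM, so it did not stay above 2. PRKAR2A, the type II alpha subunit, was at 74.6, 82.0, 86.7, 83.6, 44.2 and 51.0 CPM, with C3 above C5 1.96-fold (95% interval 1.55 to 2.49), and was not called. PRKAR2B, the type II beta subunit of brain and endocrine cells, was at 15.4, 21.6, 25.7, 28.9, 24.0 and 19.7 CPM. C4 exceeded C1 1.87-fold (95% interval 1.23 to 2.89), which was also under the minimum ratio. PRKAR1B had at most 3 counts in any library. Catalytic genes took 7.18, 6.21, 7.41, 9.91, 5.33 and 6.46% of all PKA subunit counts, a span of 4.59 percentage points, but 36.7, 33.1, 10.4, 30.9, 11.9 and 14.4% in TPM, where C1, C2 and C4 stood above the rest. Type II genes took 17.1, 20.1, 18.0, 31.4, 20.6 and 18.2% of the regulatory counts, highest in C4, the library with the most smooth muscle marker counts. In TPM the type II share was 37.97, 42.7, 38.8, 40.1, 33.7 and 29.9%, highest in C2.

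The PKC genes together stood at 678, 514, 479, 125, 109.5 and 145 CPM. PRKCE, an isoform that needs diacylglycerol but not calcium, led in counts at 421, 255, 229.7, 65.2, 64.5 and 48.4 CPM. C1 exceeded C6 8.69-fold (95% interval 7.04 to 10.8), or 5.27-fold without C1. PRKCB, a calcium-dependent classical isoform abundant in neurons, was at 107, 164, 147, 19.3, 23.1 and 29.3 CPM, and C2 exceeded C4 8.49-fold (95% interval 6.22 to 11.9). PRKCZ, an atypical isoform that responds to neither calcium nor diacylglycerol, was at 130.4, 77.9, 88.2, 9.63, 5.79 and 19.2 CPM. C1 exceeded C5 22.5-fold (95% interval 13.2 to 41.7), or 13.5-fold without C5. For all 3 isoforms the lowest of C1, C2 and C3 lay above the highest of C4, C5 and C6, as did the general neuron sums.

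The other PKC genes were low. PRKCA, the widely expressed classical isoform, was at 10.7, 10.6, 7.57, 10.9, 7.03 and 29.3 CPM, with C6 standing away from the rest. C6 exceeded C5 4.17-fold (95% interval 2.39 to 7.63), or 1.56-fold without C6, so the call rested on that library, which also held the most Schwann cell and oligodendrocyte marker counts. PRKCH, an isoform of epithelial and endothelial cells that likewise does not need calcium, was at 6.00, 6.22, 4.54, 9.63, 2.48 and 7.06 CPM. C4 exceeded C5 3.88-fold (95% interval 1.53 to 11.7), or 2.85-fold without C4 and 2.12-fold without C5, a call that was also lost with TMM scaling, DESeq2 scaling and totals without the hormone genes. PRKCD had 1, 0, 1, 10, 1 and 9 counts, PRKCI 6, 1, 1, 8, 14 and 13 and PRKCQ at most 2. The isoforms that need diacylglycerol alone (PRKCD, PRKCE, PRKCH and PRKCQ) took 63.1, 50.9, 49.0, 64.0, 61.5 and 41.8% of the PKC counts, lowest in C6, and 46.6, 37.4, 41.5, 48.6, 53.1 and 42.1% in TPM, lowest in C2. The share of PRKCA within the PKC counts was 1.58, 2.06, 1.58, 8.74, 6.42 and 20.2%, highest in C6.

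Calmodulin is the calcium sensor that activates the CaM kinases, and its genes encode the same protein. CALM3 was at 253, 362, 407, 201, 234 and 331 CPM, and C3 exceeded C4 2.02-fold (95% interval 1.81 to 2.26), or 1.80-fold without C3 and 1.74-fold without C4. CALM2 was at 48.0, 50.5, 67.7, 39.0, 42.6 and 26.2 CPM, and C3 exceeded C6 2.58-fold (95% interval 1.89 to 3.59), or 1.92-fold without C3 and 1.74-fold without C6. Both genes thus had ratios below the median of 4.20 over the 38 genes. Neither kept a ratio of 2 between these libraries in TPM, though both did with the library shift taken out. In TPM CALM3 stood at 21.8, 33.6, 44.1, 41.0, 51.0 and 54.9 TPM. The ratio of CALM3 was also under 2 with TMM scaling (1.94), DESeq2 scaling (1.81) and totals without the hormone genes (1.73). Calmodulin genes have many processed copies in mammalian genomes, and counts of CALM2 were not whole in any library, so the split between copies is uncertain.

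The arm of the CaM kinases that runs from CaM kinase kinase to CaM kinases I and IV held some of the widest differences. CAMKK2, the upstream kinase, was at 228, 220.3, 228, 18.8, 9.09 and 7.57 CPM. C3 exceeded C6 30.1-fold (95% interval 18.1 to 54.2). CAMK4, a nuclear kinase of neurons and T cells that rodent cerebellar granule cells express strongly, was at 376, 372, 331, 23.6, 36.8 and 13.6 CPM. C1 exceeded C6 27.6-fold (95% interval 18.8 to 42.1), or 15.9-fold without C6. CAMK1D, a CaM kinase I isoform, was at 237, 191, 161, 30.2, 20.7 and 12.1 CPM, and C1 exceeded C6 19.5-fold (95% interval 13.0 to 30.8), or 11.5-fold without C6. For all 3 kinases the values in C1, C2 and C3 lay within 1.5 times of each other and above those of the other libraries. CAMK1, the founding CaM kinase I gene, went the other way, at 1.72, 1.10, 1.14, 11.4, 21.9 and 6.56 CPM. C5 exceeded C2 19.95-fold (95% interval 6.47 to 99.8), although C2 rested on 3 counts. Without C5 the ratio was 10.4-fold, C4 over C2, with 49 counts left and no test. CAMK1 took 0.714, 0.563, 0.679, 22.6, 50.0 and 33.3% of the CaM kinase I counts and CAMK1D 98.6, 97.9, 96.4, 60, 47.2 and 61.5%. In TPM the same family was nearly all CAMK1D, with shares of 99.96, 99.95, 99.9, 97.9, 94.2 and 97.8%, so the size of this change depends on the unit. CAMK1G peaked at 20 counts in C4, and CAMKK1 had at most 2 counts.

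**Figure D2:**
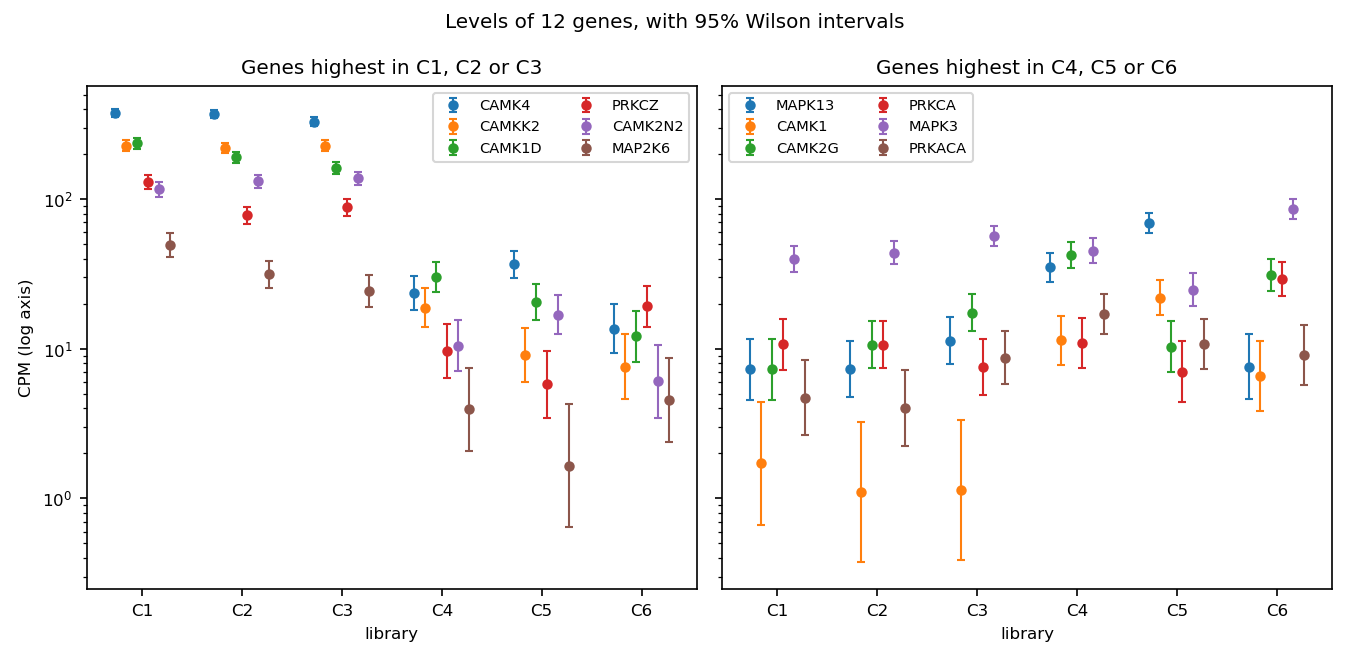
CPM on a log axis for 12 genes in the 6 libraries, with bars for 95% Wilson intervals that cover counting error; points are offset sideways for legibility. CAMK4, CAMKK2, CAMK1D, PRKCZ, CAMK2N2 and MAP2K6 sit higher in C1, C2 and C3, while MAPK13 and CAMK1 peak in C5, CAMK2G and PRKACA in C4, and PRKCA and MAPK3 in C6.

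CaM kinase II is a large holoenzyme built from 4 genes. CAMK2D, its widely expressed delta subunit, led in counts at 210.1, 233, 190.3, 96.3, 74.0 and 66.1 CPM. C2 exceeded C6 3.52-fold (95% interval 2.91 to 4.28), a ratio of 1.99 in TPM and 3.56 in TPM with the library shift taken out. CAMK2B, the neuronal beta subunit, was at 54.5, 58.2, 55.2, 4.81, 5.79 and 19.7 CPM, and C2 exceeded C4 12.1-fold (95% interval 6.57 to 24.7). CAMK2G, the gamma subunit of muscle and other peripheral tissues, had another order, at 7.29, 10.6, 17.4, 42.5, 10.3 and 31.3 CPM. C4, the library richest in smooth muscle markers, exceeded C1 5.82-fold (95% interval 3.46 to 10.4). CAMK2A, the alpha subunit typical of forebrain neurons, had 2, 5, 1, 4, 0 and 13 counts, so C1, C2 and C3, with their high neuron sums, held almost none. CAMK2G took 2.67, 3.50, 6.61, 29.2, 11.5 and 25.3% of the CaM kinase II counts, CAMK2B 19.97, 19.2, 21.0, 3.31, 6.42 and 15.9% and CAMK2D 77.0, 76.7, 72.3, 66.3, 82.1 and 53.5%. In TPM, the CAMK2G share was 0.524, 0.581, 1.27, 6.36, 3.45 and 5.23%, highest in the same library. The CAMK2D share was 63.3, 53.2, 62.7, 87.5, 95.2 and 65.4% in TPM, where C4, C5 and C6 stood above C1, C2 and C3, unlike in the counts. The CAMK2B share was 36.2, 46.2, 36.0, 6.07, 1.34 and 29.2% in TPM, a wider span than in the counts.

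CAMK2N1 and CAMK2N2 encode small inhibitor proteins of CaM kinase II. CAMK2N1 was at 75.5, 113, 145, 11.8, 7.44 and 31.8 CPM, and C3 exceeded C5 19.5-fold (95% interval 12.2 to 33.3), or 12.3-fold without C5. CAMK2N2 was at 116, 131, 138, 10.5, 16.9 and 6.06 CPM, and C3 exceeded C6 22.8-fold (95% interval 12.9 to 44.5), or 13.1-fold without C6. Inhibitor genes took 41.3, 44.7, 51.8, 13.3, 21.3 and 23.4% of the counts of kinase and inhibitors together, with C1, C2 and C3 above C4, C5 and C6. In TPM this share was 3.79, 3.79, 5.72, 1.40, 3.01 and 1.92%, an order in which C5 stood above C6 and near C1 and C2. Within the inhibitors, CAMK2N1 took 39.4, 46.3, 51.3, 52.9, 30.5 and 84.0%, with 84.0% (95% Wilson interval 74.1 to 90.6%) in C6 and 30.5% (95% Wilson interval 20.3 to 43.1%) in C5.

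Among the MAP2K genes the widest ratio was that of MAP2K6. This gene, which activates p38, was at 49.3, 31.5, 24.2, 3.94, 1.65 and 4.54 CPM. C1 exceeded C5 29.8-fold (95% interval 11.3 to 111), or 19.0-fold without C1 and 12.5-fold without C5, with 4 counts in C5. MAP2K3, the other p38 activator, was at 47.2, 45.7, 54.1, 43.3, 40.9 and 12.6 CPM, level in the first 5 libraries and low in C6. C3 exceeded C6 4.29-fold (95% interval 2.79 to 6.85), or 1.32-fold without C6, so the call rested on C6. MAP2K6 took 51.1, 40.8, 30.9, 8.33, 3.88 and 26.5% of the counts of this pair, and 98.2, 97.6, 95.1, 64.6, 47.5 and 84.9% in TPM. MAP2K4, which activates JNK and p38, was at 23.2, 21.6, 23.1, 7.88, 6.20 and 6.06 CPM, and C1 exceeded C6 3.82-fold (95% interval 2.02 to 7.85). MAP2K7, which activates JNK, was at 74.6, 74.6, 110.1, 74.8, 52.1 and 167 CPM, with C6 above C5 3.20-fold (95% interval 2.60 to 3.96), or 2.11-fold without C6. The share of MAP2K4 within this pair was 23.7, 22.4, 17.3, 9.52, 10.6 and 3.51%, and 94.7, 94.5, 88.3, 74.1, 57.5 and 30.5% in TPM, lowest in C6 on both scales. C6 thus combined the lowest level of MAP2K3 with the highest level of MAP2K7. For MAP2K4 the Wilson intervals of C4, C5 and C6 overlapped, with 12 counts in C6 and 15 in C5.

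Of the 3 MAP2K genes of the ERK cascades, MAP2K1 was called and the others were not. MAP2K1 (MEK1) was at 9.43, 5.85, 7.95, 16.6, 18.2 and 22.2 CPM. C6 exceeded C2 3.79-fold (95% interval 2.10 to 7.20), while the ratio of these libraries was 2.41 in TPM and 1.35 with the library shift taken out. MAP2K2 (MEK2) was at 11.6, 7.32, 11.4, 12.3, 9.51 and 13.6 CPM and was not called (chi-square test with Benjamini-Hochberg adjustment, adjusted p = 0.361), with C6 above C2 1.86-fold (95% interval 1.01 to 3.50). MAP2K5, which activates ERK5, was at 39.0, 39.2, 37.8, 32.4, 28.9 and 34.8 CPM and had the narrowest range of the 38 genes. C2 exceeded C5 1.35-fold (95% interval 0.992 to 1.86), which did not pass the test (adjusted p = 0.333). MAP2K1 took 44.9, 44.4, 41.2, 57.6, 65.7 and 62.0% of the MEK1 and MEK2 counts, but 88.9, 89.0, 83.3, 86.5, 92.4 and 84.8% in TPM, where C1, C2 and C3 no longer stood below the others.

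MAPK3 (ERK1), a last kinase of the classical cascade, was at 39.9, 43.9, 56.8, 45.1, 24.8 and 85.8 CPM, and C6 exceeded C5 3.46-fold (95% interval 2.56 to 4.72), or 2.15-fold without C5 and 2.29-fold without C6. Its 3 highest libraries were C3, C4 and C6.

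The 3 JNK genes had C1, C2 and C3 highest. MAPK10 (JNK3), the neuronal isoform, led in counts at 437, 372, 347, 129, 124 and 76.7 CPM. C1 exceeded C6 5.69-fold (95% interval 4.79 to 6.79), or 3.52-fold without C6. MAPK8 (JNK1) was at 129, 124, 116, 83.6, 59.5 and 32.3 CPM, and C1 exceeded C6 4.01-fold (95% interval 3.05 to 5.34), or 2.18-fold without C6. MAPK9 (JNK2) was at 27.4, 21.2, 32.9, 13.6, 13.6 and 14.6 CPM, and C3 exceeded C4 2.43-fold (95% interval 1.59 to 3.78). MAPK10 was still at 76.7 CPM or more in every library and took 73.6, 72.0, 70.0, 57.0, 62.9 and 62.0% of the JNK counts, so it led the JNK counts also where the neuron sums were low. MAPK8 had its highest TPM in C4, at 161 TPM, against 125 TPM in C1, but with the library shift taken out C1 stood above C4.

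In the p38 family MAPK14 led the counts in 5 libraries and MAPK13 in C5. MAPK14 (p38 alpha), the broadly expressed form, was at 47.2, 55.3, 68.9, 41.1, 23.6 and 29.3 CPM, and C3 exceeded C5 2.92-fold (95% interval 2.16 to 4.01). MAPK13 (p38 delta), a form of epithelial and endocrine cells, was at 7.29, 7.32, 11.4, 35.0, 69.0 and 7.57 CPM. C5 exceeded C1 9.47-fold (95% interval 5.74 to 16.6), or 4.80-fold without C5, and C5 was also the library with the highest hormone gene sum. Of C4, C5 and C6, C6 had the lowest hormone gene sum, and its MAPK13 level of 7.57 CPM lay within counting error of those in C1 and C2. A link between MAPK13 and the hormone sums was not tested. MAPK13 took 13.3, 11.6, 14.0, 44.9, 73.2 and 18.3% of the p38 counts, with 73.2% (95% Wilson interval 67.1 to 78.6%) in C5 and 18.3% (95% Wilson interval 11.4 to 28.0%) in C6. In TPM its share was 1.47, 1.24, 1.76, 17.1, 42.4 and 4.44%, still highest in C5. MAPK11 and MAPK12 had at most 3 and 6 counts in a library.

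Of the remaining MAPK genes, MAPK4 (ERK4), an atypical kinase without a conventional activation loop, was at 194, 252, 149.8, 19.7, 16.1 and 42.4 CPM. C2 exceeded C5 15.7-fold (95% interval 11.3 to 22.2), while in TPM the gene stood at 20.8, 37.2, 44.3, 32.0, 18.9 and 35.4 TPM, a ratio of 1.97 between the same libraries, or 4.60 with the library shift taken out. MAPK6 (ERK3), its close relative, was at 3.86, 5.85, 5.68, 8.75, 11.2 and 5.55 CPM, from 9 to 27 counts per library. C5 exceeded C1 2.89-fold (95% interval 1.32 to 6.99), or 2.01-fold without C1 and 2.27-fold without C5. The call was lost without either library. MAPK7 (ERK5) had 0, 0, 0, 3, 4 and 6 counts and MAPK15 0, 0, 1, 3, 10 and 5, so ERK5 was counted at or near 0 while its activator MAP2K5 was present at 28.9 CPM or more in every library.

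**Figure D3:**
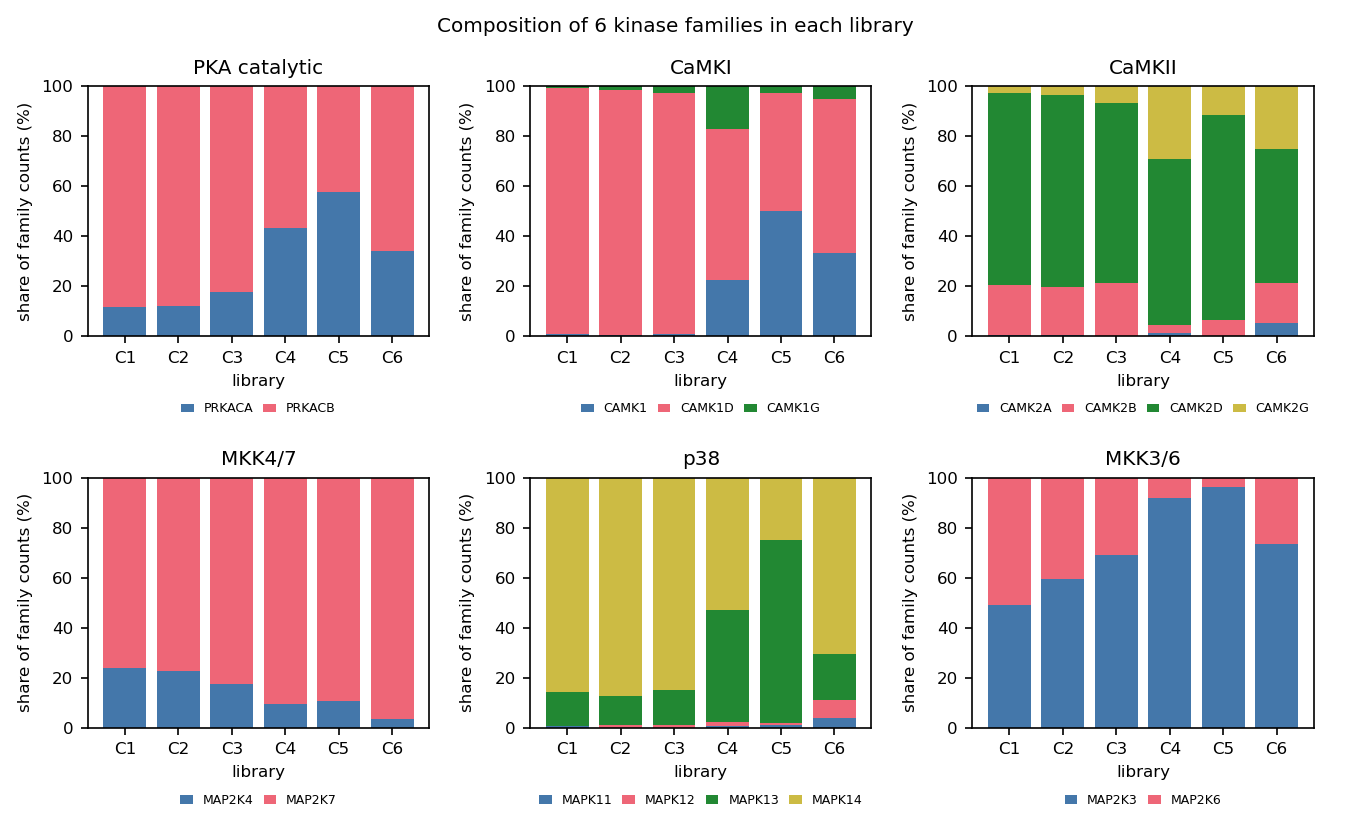
Stacked bars of the share of each gene in its family's counts (vertical axis, percent) for 6 families in libraries C1 to C6. PRKACA, CAMK1, CAMK2G, MAP2K7, MAPK13 and MAP2K3 take larger shares in C4, C5 and C6 than in C1, C2 and C3, with MAPK13 reaching 73.2% in C5. Except for CAMK1, the 95% Wilson interval of the share in C3 overlapped that in C5 or C6.

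Shares within a family do not depend on library totals or scaling. Over 14 families and 4 groupings, 53 shares were computed, with both genes of a pair counted, and 23 of them spanned at least 20 percentage points between libraries. In TPM 20 did, and with any library left out 17 to 23 did. Among the widest spans, counting pairs of 2 genes once, were those of MAPK14 (62.3 points) and MAPK13 (61.7 points), CAMK2N1 (53.5 points), CAMK1D (51.4 points), CAMK1 (49.4 points), MAP2K6 (47.2 points) and PRKACA (46.2 points).

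Few of these genes were called among C1, C2 and C3, and more among C4, C5 and C6. Tested on C1, C2 and C3 alone, with the same minimum, 2 of 33 genes were called, against 10.3% of 10281 features. They were CAMK2G, with C3 at 17.4 and C1 at 7.29 CPM, and MAP2K6, with C1 at 49.3 and C3 at 24.2 CPM. Tested on C4, C5 and C6 alone, 17 of 34 genes were called, against 40.2% of 9166 features. Both subsets were formed after the values were seen. The widest ratio among C4, C5 and C6 was that of MAPK13 (9.12-fold, C5 over C6), followed by CAMK2N1 (4.27-fold, C6 over C5), PRKCA (4.17-fold, C6 over C5), CAMK2G (4.11-fold, C4 over C5) and CAMK2B (4.09-fold, C6 over C4). CAMK4 (2.70-fold, C5 over C6), CAMKK2 (2.49-fold, C4 over C6) and CAMK1D (2.49-fold, C4 over C6) also differed, each with its lowest CPM in C6. Of these 3 libraries, C6 thus had the highest CPM for CAMK2B and CAMK2N1 and the lowest for CAMK4 and CAMKK2. All 4 genes nevertheless had C1, C2 and C3 highest. The Wilson intervals overlapped for CAMKK2 in C5 (6.00 to 13.8 CPM) and C6 (4.59 to 12.5 CPM). They also did for CAMK4 in C4 (18.1 to 30.8 CPM) and C6 (9.36 to 19.8 CPM). In TPM, C6 stayed the highest of the 3 for CAMK2B and CAMK2N1 but was not the lowest for CAMK4 or CAMKK2. CAMK4 was lowest in C4 (80.6 TPM, against 96.0 TPM in C6) and CAMKK2 in C5 (8.57 TPM, against 40.7 TPM in C6).

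In TPM, which divides counts by length, the order of the genes was another than in CPM. Which of the scales suits reads of full-length complementary DNA was not tested. By median TPM over the libraries, the leading genes were CAMK4 (514 TPM), CAMK1D (501 TPM), CAMK2D (474 TPM), MAPK10 (411 TPM) and CAMKK2 (222 TPM), while PRKAR1A, with a higher median CPM than any of these, was at 32.6 TPM. TPM per CPM is high where the length used for TPM is short. For the median of the libraries, it was 15.7 times that of the median gene for CAMK2B, 15.1 times for CAMK1D, 11.1 times for MAP2K6, 9.90 times for CAMK4 and 8.89 times for CAMK2D, and 0.363 times for CALM3. Of 23 genes with at least 10 counts in every library and their 3 highest CPM in C1, C2 and C3, 14 exceeded the median gene by more than 1 log2 unit, against 47.3% of all 2917 features with that order. The authors' lengths were not given in the sources used here.

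For a gene counted on 1 transcript, or on a constant mix, TPM per CPM is the same in every library once the library shift is removed. It was so for CALM3, at -1.46, -1.46, -1.46, -1.46, -1.46 and -1.46 log2 units relative to the median gene, and its span was at most 0.02 units for PRKACA, PRKAR2B, CALM2, both CaM kinase II inhibitors, MAP2K3, MAP2K7, MAPK3 and MAPK13. It moved by more than 1 unit for 11 of the 34 genes with at least 10 counts in every library, against 21.5% of 8245 features. CAMK2B stood at 4.42, 4.96, 4.21, 3.57, 0.35 and 3.73, so the length implied by its TPM was longer in C5 than elsewhere, from 14 counts. CAMKK2 stood at 2.80, 2.67, 2.66, 3.01, 0.65 and 3.56, with the lowest value also in C5. MAPK4 stood at -1.15, -0.80, -0.02, 1.53, 0.97 and 0.87, so the implied length was shorter in C4, C5 and C6 than in C1 and C2. PRKACB stood at 1.23, 1.29, -1.30, 0.66, 0.00 and -0.32, and C3 differed from C1 and C2 although the 3 libraries had similar CPM. The implied lengths could not be checked, and which transcripts were counted was not analysed here.

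**Figure D4:**
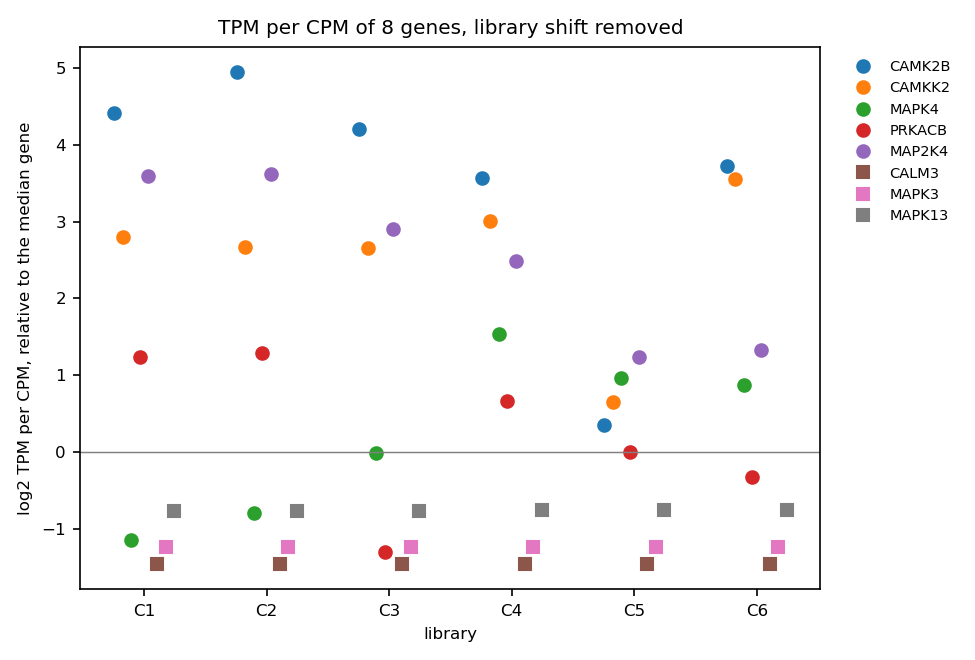
TPM per CPM (log2, relative to the median gene, library shift removed) of 8 genes in libraries C1 to C6, offset sideways for legibility. Higher values imply a shorter length in the TPM values, which could not be checked. The squares (CALM3, MAPK3 and MAPK13) are level across libraries, while the circles (CAMK2B, CAMKK2, MAPK4, PRKACB and MAP2K4) move by 2.39 to 4.60 log2 units.

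The wider pathways were read from 10 lists, chosen with earlier results of these data known. Of 12 tested PKA inhibitor and anchoring genes, 10 were called, 3 of them with C1, C2 and C3 highest and 3 with C4, C5 and C6 highest. PKIB, a peptide inhibitor of PKA, was at 351, 392, 188, 26.3, 49.6 and 19.2 CPM, and the anchoring protein gene AKAP6 at 164, 138, 143, 37.2, 8.27 and 43.4 CPM. Of 9 cyclic AMP-responsive factors and coactivators, 6 were called, led by the coactivator gene CRTC1 at 147, 115, 138, 8.32, 11.6 and 7.06 CPM, a ratio of 20.8-fold. The acetyltransferase gene EP300 was at 92.2, 75.4, 76.8, 23.2, 19.0 and 27.8 CPM and the factor gene CREB5 at 27.0, 30.4, 20.1, 19.7, 2.07 and 9.59 CPM, both lowest in C5. PKIB, AKAP6 and CRTC1 had C1, C2 and C3 highest, as PRKACB did. Of 11 cyclic AMP phosphodiesterases, 10 were called, 5 with C1, C2 and C3 highest. PDE10A led in level at 2215, 1205, 1227, 541, 478 and 406 CPM, while PDE1A, a calmodulin-activated enzyme, was at 96.5, 99.5, 122, 45.1, 1.65 and 144 CPM, highest in C6. PDE4D was at 742, 382, 481, 449.5, 185 and 129.7 CPM and PDE4B at 367, 243, 254, 28.5, 18.2 and 114 CPM, both highest in C1.

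Around PKC and calmodulin, all 9 tested phospholipase C, IP3 receptor and diacylglycerol kinase genes were called, 6 with C1, C2 and C3 highest. DGKG, a kinase that removes diacylglycerol, was at 173, 181, 194, 8.75, 9.51 and 15.6 CPM. PLCB1, a phospholipase C, was at 869, 697, 764, 252, 212 and 131 CPM and DGKI, another diacylglycerol kinase, at 14.2, 14.3, 9.46, 1.75, 0.827 and 1.01 CPM, both with C1, C2 and C3 highest. Of 11 PKC substrates and partners, 10 were called. PEBP1, an inhibitor of RAF, was at 1495, 1889.6, 1473, 294, 411 and 514 CPM, and PPP1R14A, a PKC-controlled phosphatase inhibitor of smooth muscle, at 9.00, 5.49, 12.9, 325, 3.31 and 136 CPM. MARCKS, a major PKC substrate, was at 452, 579, 456, 365, 278 and 787 CPM and the adducin gene ADD2 at 33.4, 35.9, 34.1, 0.875, 1.24 and 2.52 CPM, a ratio of 41.0-fold. Of 12 further calmodulin-binding genes, 11 were called, 7 with C1, C2 and C3 highest. PPP3CA, the catalytic subunit of calcineurin, was at 762, 534, 433, 88.4, 55.0 and 93.4 CPM, and the calmodulin buffer gene PCP4 at 964, 1194, 1081, 139.6, 244 and 96.4 CPM. MYLK, the smooth muscle myosin kinase, was at 0.858, 1.83, 7.95, 194, 0.827 and 25.7 CPM, highest in C4 with the smooth muscle markers. NRGN, a calmodulin-binding protein of forebrain neurons, was at 0.858, 2.20, 3.03, 10.9, 3.72 and 26.2 CPM, highest in C6, as was CAMK2A.

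Along the MAP kinase cascades, 15 of 18 RAS and MAP3K genes were called, 10 with C1, C2 and C3 highest. BRAF was at 225, 221, 199, 105, 110.4 and 71.2 CPM, whereas MAP3K5 (ASK1) was at 2.14, 0.366, 1.51, 19.7, 6.20 and 17.2 CPM and MAP3K8 at 4.72, 1.46, 0.757, 26.3, 3.72 and 9.08 CPM, both highest in C4. Of 8 MAP kinase phosphatases, 7 were called. DUSP6, which dephosphorylates ERK and is induced by it, was at 3.43, 2.20, 2.27, 43.8, 39.7 and 36.8 CPM, with C4, C5 and C6 highest, as for MAP2K1. DUSP1, an immediate early phosphatase, was at 17.6, 42.1, 27.6, 313, 10.7 and 26.7 CPM, highest in C4, and DUSP16, at 51.9, 58.5, 61.7, 20.6, 9.92 and 25.2 CPM, and PTPRR, at 57.0, 53.1, 45.0, 11.8, 14.9 and 5.55 CPM, had C1, C2 and C3 highest. Of 7 scaffold genes, 6 were called, with KSR2 at 114, 85.3, 68.1, 30.6, 37.2 and 9.59 CPM. SPAG9 was at 108, 92.9, 96.1, 68.3, 49.6 and 97.9 CPM, LAMTOR3 at 87.5, 99.5, 90.4, 59.5, 49.2 and 73.7 CPM and MAPK8IP3 at 8.58, 5.49, 11.0, 2.63, 0.827 and 2.02 CPM, all lowest in C5. Of 14 downstream kinases and targets, 11 were called, among them MEF2A at 801, 643, 538, 221, 158 and 192 CPM and JUN at 35.2, 64.4, 76.8, 594, 30.2 and 72.7 CPM, with JUN highest in C4. JUND was at 57.5, 89.6, 81.0, 84.9, 39.7 and 37.8 CPM and RPS6KA4, a kinase activated by ERK and p38, at 10.7, 11.7, 15.9, 11.8, 1.24 and 6.56 CPM. Over the 10 lists the called share ran from 66.7% to the whole of 1 list, to be read against 80.9% of all features.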

How the data were processed

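Per the labels, total RNA from 6 tissue samples was made into full-length complementary DNA libraries with an amplification step, and no molecular identifiers are named. Per the submitters' processing notes, reads were aligned with minimap2 2.17-r941. The counting tool, genome build, annotation and transcript lengths were not given in the sources used here. The authors deposited 2 tables per gene, estimated counts and TPM. The deposited estimated counts are not normalized and were rounded for all tests, since 24.0 to 29.8% of a library's values had a fractional part. The authors' TPM values sum to 1000000 in each library. Of each table, 4 rows of text without measurements were left out. All 50 gene symbols were found in a RefSeq table, used for names.

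CPM divides the rounded count by the sum of its library. The 13248 features that reached 60 counts in all entered a chi-square test of homogeneity with Benjamini-Hochberg adjustment over all of them. A call needed an adjusted p below 0.05 and a highest CPM at least 2 times the lowest. A count of 0 in a ratio was set to 3. Wilson and exact conditional intervals are at 95% and cover counting error only, because amplified reads are not independent molecules. The breeds were not compared, since the labels assign no library to a breed. TPM per CPM was taken relative to the median gene in C1, after subtracting each library's median within-gene difference from C1, over genes with at least 10 counts in every library.

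The genes of the set were named, and a few genes of the set and of the lists are not reported here, though the totals and counts include them. Of each of the 10 pathway lists, the 2 called members with the highest median CPM and the 2 with the largest ratio were named, where reported. Of the 12 marker lists the sums are given. The genes and lists were chosen with earlier results of these data known. The calculation was tested on simulated counts. Scaling factors came from edgeR 4.0.16 (TMM) and DESeq2 1.42.0, the rest from Python 3.11.15 with scipy 1.17.1.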

Additional observations from a re-analysis of the deposited data

Results flagged for a closer look

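Of the 38 tested genes, 2 had a library far from the others on the log2(CPM + 1) scale, by Dixon's 95% critical value for 6 values, and both were in C6. PRKCA was at 29.3 CPM in C6, against 10.9 CPM in the next highest library, a gap of 0.701 of the whole range. MAP2K3 was at 12.6 CPM in C6, against 40.9 CPM in the next lowest library, a gap of 0.804 of the whole range. Chance flags about 1 in 20 such sets of values, so 2 of 38 is near the number that chance gives. In TPM, C6 was still the extreme library for both genes. PRKCA was at 41.8 TPM there against 29.6 TPM in C4, and MAP2K3 at 2.06 TPM against 4.01 TPM in C1. The 6 libraries have no group in the labels, so these are not deviations from replicates. C6 also held the most Schwann cell and oligodendrocyte marker counts, whose part in these values was not tested.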

How the results depend on the processing

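Of the 38 tested genes, 34 were called, against 80.9% of all features. The count was 32 with TMM scaling (79.8% of all features), 31 with DESeq2 scaling (79.6%), 32 against totals without the hormone genes (80.3%) and 32 in thinned counts (80.5%). With a library left out it was 30 to 33, against 73.9 to 78.9% of all features. A minimum ratio of 3 gave 27 (64.3%) and one of 1.5 gave 36 (88.8%), while a minimum of 20 counts gave 38 of 42 genes (79.1%) and one of 200 counts 28 of 31 (78.9%). Without a test, 33 genes had a ratio of 2 in TPM (91.5%) and 34 in TPM with the library shift taken out (88.8%). Under alternatives chosen after the values were seen, C4, C5 and C6 alone gave 17 called genes and C1, C2 and C3 alone gave 2, with fewer libraries compared. The 3 highest libraries were C4, C5 and C6 for 3 genes, against 9 in TPM and 0 of 31 with a minimum of 200 counts, which leaves out PRKACA, CAMK1 and MAP2K1. C1, C2 and C3 were highest for 16 to 24 genes over these settings. Over the pathway lists there were 95 calls, and 82 to 91 with a library left out, with NRGN counted in each list that held it. Shares spanning 20 points numbered 23, and 17 to 23 with a library left out. TMM moved all genes of a library by -0.10 to 0.21 log2 units and DESeq2 by -0.16 to 0.31. Totals without the hormone genes raised C4, C5 and C6 by 0.22, 0.51 and 0.07. Among the single-gene ratios under these settings, 31 lost the call and 4 gained it. Orders could turn in TPM, where MAP2K5, not called, stood at 42.3 TPM in C2 and 63.7 TPM in C5, against C2 above C5 in CPM. With the library shift taken out (0.11 log2 units in C2 and 1.34 in C5), C2 was again above C5 for MAP2K5. The highest library was the same in TPM and CPM for 25 of the 38 genes. Why it differed for the other genes was not tested. No paired analysis was possible because no library has a group. Depth limits the genes under 60 counts most, since 1 count is worth 0.366 to 0.505 CPM.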
